A study of Mus musculus with 4 samples.

Results

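The p38 and JNK cascade genes examined here are 10 of the 19938 genes measured in myeloid-derived suppressive cells (MDSCs) of the mouse bone marrow. They were chosen by name. They are the MAP kinase kinases Map2k3, Map2k4 and Map2k6, the p38 kinases Mapk13 and Mapk14, the JNK kinases Mapk8 and Mapk9, the p38-activated kinases Mapkapk2 and Mapkapk3, and Zfp36, an RNA-binding protein that Mapkapk2 phosphorylates. Each had 1 probe set that names that gene alone. The samples were 2 arrays of *lal−/−* mice, which lack lysosomal acid lipase (LAL), and 2 arrays of wild type *lal+/+* mice. All mice were 5 months old, of a 10 generation back-cross on FVB/N, and carried no agent or transgene that the labels name. The labels call the cells CD11b and Gr-1 double positive, while the methods describe magnetic selection of Ly6G+ cells. The methods give a number of mice but not how their RNA was shared out over the arrays, so the p-values cover only the spread between these 4 arrays, part or all of which may be technical.

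RNA was measured on Affymetrix Mouse Gene 1.0 ST chips, and the values are log2 expression levels. Calls were made by limma on *lal−/−* against *lal+/+*. A call needs a change of 2-fold or more, with a Benjamini-Hochberg adjusted p, over all 21789 probe sets that name 1 gene, of less than 0.05. Lipa, which encodes LAL, had levels of 7.37 and 7.49 in *lal−/−* cells, against 9.50 and 9.05 in *lal+/+* cells. This was a log2 fold change of -1.85 (standard error 0.17, limma adjusted p = 0.000417). The sources used here do not say which exons its probe set reads. The correlation across probe sets, given as a description, had a Pearson's r of 0.994 for the *lal−/−* pair, 0.988 for the *lal+/+* pair and at most 0.937 for arrays of unlike genotype. Olfactory receptor genes, which these cells should not transcribe, were read by 1035 of the probe sets that name 1 gene. These probe sets had their 95th percentile at 6.29 in *lal−/−* cells and 6.79 in *lal+/+* cells. A level under it is not told apart from that of a silent gene.

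MAP kinases work as relays. A kinase kinase phosphorylates a MAP kinase on its activation loop, and the MAP kinase then phosphorylates transcription factors and further kinases. Map2k3 and Map2k6 activate p38, and Map2k4 can activate both JNK and p38. In myeloid cells the p38 branch is best known for controlling the stability of inflammatory mRNAs. Active p38 phosphorylates Mapkapk2 and Mapkapk3, also called MK2 and MK3, and MK2 phosphorylates Zfp36, also called tristetraprolin. Unphosphorylated Zfp36 binds AU-rich elements of cytokine mRNAs such as Tnf and brings them to the deadenylation machinery. The arrays measured mRNA and not phosphorylation.

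Of the 10 genes, 4 were called higher in *lal−/−* MDSCs, namely Mapkapk3, Mapk13, Mapkapk2 and Map2k4, and 0 were called lower. Among all 19938 genes, 7.56% were called higher and 3.24% lower. Without the fold threshold, 5 of the 10 passed as higher and 2 as lower, against 19.8% and 9.85% of all genes. The 2 lower genes were Mapk8 and Zfp36, whose changes depended on the scaling of the arrays, as given below. The median log2 fold change of the 10 genes was 0.62, and that of all genes was 0.08. 5 of the 10, among them all 4 called higher, stand in the study's own tables of genes changed on these arrays. Their direction is therefore not independent evidence. The plot of levels by array shows the 10 genes in the order of the cascade.

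**Figure D1:**
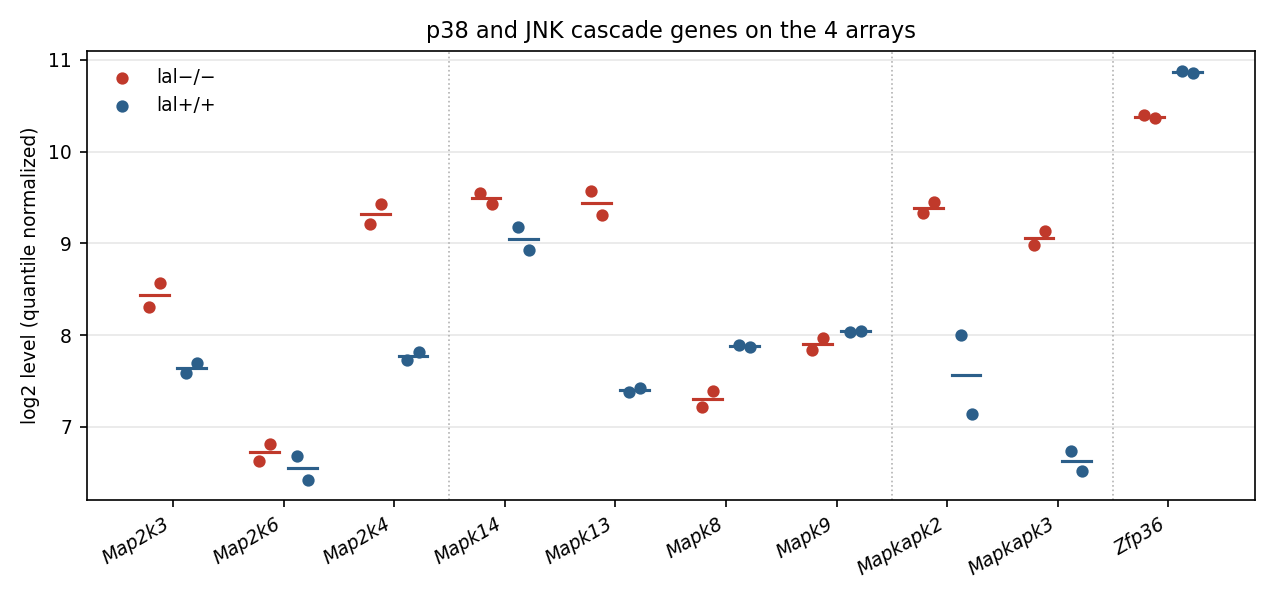
The vertical axis is the quantile normalized log2 level, each point is 1 array, each short line is the mean of a genotype (n = 2 arrays), and *lal−/−* stands left of *lal+/+* for each gene. In Map2k4, Mapk13, Mapkapk2 and Mapkapk3 the 2 *lal−/−* arrays lie over 1 log2 unit above both *lal+/+* arrays, and in Map2k6 the genotypes overlap.

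Among the activating kinases, Map2k4 was the gene called higher. Its levels were 9.22 and 9.43 in *lal−/−* MDSCs, against 7.73 and 7.82 in *lal+/+* MDSCs. Both *lal−/−* arrays stood far above both *lal+/+* ones, and the spread within each genotype was small. The difference was 1.55 on the log2 scale (standard error 0.13, 95% confidence interval 1.23 to 1.86, limma adjusted p = 0.000301), or 2.92-fold.

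Map2k3, one of the p38 activators, had levels of 8.30 and 8.57 in *lal−/−* MDSCs, against 7.59 and 7.70 in *lal+/+* MDSCs. The arrays did not overlap, which is also so for 41.6% of all genes in the higher direction and for 6 of the 10 genes here. It was higher by 0.80 on the log2 scale (standard error 0.14, interval 0.46 to 1.13, limma adjusted p = 0.00587), and the 1.74-fold difference was under the threshold of 2. With the values as deposited the log2 fold change was 1.04, and with the arrays set to a common median it was 1.22, both of which passed. The study's tables list Map2k3 as increased, at a fold of at least 2, unlike the result with quantile normalization here.

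Map2k6, the other p38 activator, had levels of 6.63 and 6.82 in *lal−/−* MDSCs, against 6.68 and 6.42 in *lal+/+* MDSCs. The genotypes overlapped, and both *lal+/+* levels lay under that of silent genes. The interval of the log2 fold change ran from -0.17 to 0.52, with a limma adjusted p of 0.424.

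The 2 p38 kinases lie side by side on chromosome 17 and differed in size of change. Mapk14 encodes p38α, the main isoform of most cells. It had levels of 9.55 and 9.43 in *lal−/−* MDSCs, against 9.18 and 8.93 in *lal+/+* MDSCs. Both genotypes were above silent genes, and the arrays did not overlap. The log2 fold change of 0.44 (standard error 0.14, interval 0.11 to 0.77) had a limma adjusted p of 0.0540 and did not pass. With a common median of the arrays it was 1.05, with an adjusted p of 0.000928 by limma, and passed.

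Mapk13 encodes p38δ, an isoform with a narrower tissue range. Its levels were 9.57 and 9.31 in *lal−/−* MDSCs, against 7.38 and 7.42 in *lal+/+* MDSCs. The *lal+/+* arrays were nearly equal and both lay far under the *lal−/−* pair. This was a log2 fold change of 2.04 (standard error 0.14, interval 1.71 to 2.37, limma adjusted p = 0.000143), a 4.11-fold difference. The intervals of Mapk13 and Mapk14 did not overlap, though the difference between both changes was not tested.

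In the gene order of RefSeq, Srpk1 and Slc26a8 lie on the Mapk14 side of the pair, and Brpf3 and Pnpla1 lie on the Mapk13 side. Srpk1 and Slc26a8 had log2 fold changes of 0.13 and 0.22 and did not pass. Brpf3, a subunit of histone acetyltransferase complexes, had 0.54, with a limma adjusted p of 0.0173 and under the fold threshold. Pnpla1, a lipase-like protein best known in skin, was called higher at 1.52, with *lal+/+* levels of 5.57 and 5.53 that were under those of silent genes. The neighbours were chosen by position, and Pnpla1 is the only one of the 4 that was called.

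Neither JNK gene was called. Mapk8, which encodes JNK1, had levels of 7.21 and 7.39 in *lal−/−* MDSCs, against 7.89 and 7.87 in *lal+/+* MDSCs. Here both *lal−/−* arrays were lower. The arrays of 24.1% of all genes, and of 3 of the 10 genes here, did not overlap in this direction. The log2 fold change was -0.58 (standard error 0.13, interval -0.88 to -0.28, limma adjusted p = 0.0138), and the difference was under 2-fold. With a common median it was -0.27, with an adjusted p of 0.21 by limma, and without *lal−/−* replicate 1 it was -0.47, with an adjusted p of 0.131 by limma.

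Mapk9, which encodes JNK2, had levels of 7.84 and 7.97 in *lal−/−* MDSCs, against 8.03 and 8.05 in *lal+/+* MDSCs. The log2 fold change was -0.14 (interval -0.43 to 0.16, limma adjusted p = 0.459). Its sign was not settled, as it was 0.27 with a common median and 0.095 with the values as deposited.

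Of the kinases that p38 activates, Mapkapk3 and Mapkapk2 were called higher, and the 4 others analysed, given below, were not. Mapkapk3 had levels of 8.98 and 9.13 in *lal−/−* MDSCs, against 6.74 and 6.52 in *lal+/+* MDSCs. Both *lal+/+* levels were under that of silent genes, while both *lal−/−* levels were far above it. The fitted log2 fold change was 2.43 (standard error 0.14, interval 2.10 to 2.75, limma adjusted p = 8.83e-05), which rests on that low *lal+/+* signal. The *lal−/−* mean of Mapkapk3 was 4.82-fold above the level of silent genes in *lal+/+* cells, a value that carries no error.

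Mapkapk2 had levels of 9.33 and 9.45 in *lal−/−* MDSCs, against 8.0 and 7.14 in *lal+/+* MDSCs. The *lal+/+* arrays lay further apart than those of any other of the 10 genes. The SD was 0.08 in *lal−/−* cells and 0.61 in *lal+/+* cells. Each *lal+/+* array was nevertheless under the *lal−/−* pair. On the log2 scale the genotypes differed by 1.82 (standard error 0.26, interval 1.19 to 2.45, limma adjusted p = 0.00247), or 3.53-fold. Leaving out each array in turn gave 1.43 to 2.31, and the call held each time.

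Zfp36, the end point of the branch, had levels of 10.40 and 10.37 in *lal−/−* MDSCs, against 10.88 and 10.85 in *lal+/+* MDSCs. The arrays of each genotype were nearly equal after normalization, and the *lal−/−* pair was lower. The log2 fold change was -0.48 (standard error 0.12, interval -0.77 to -0.20, limma adjusted p = 0.0218), under the fold threshold. This value depended on the scaling. The deposited levels were 10.63 and 10.60 in *lal−/−* cells, against 10.71 and 10.60 in *lal+/+* cells. Their log2 fold change was -0.04, and with a common median it was 0.14. No direction is therefore given for Zfp36.

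**Figure D2:**
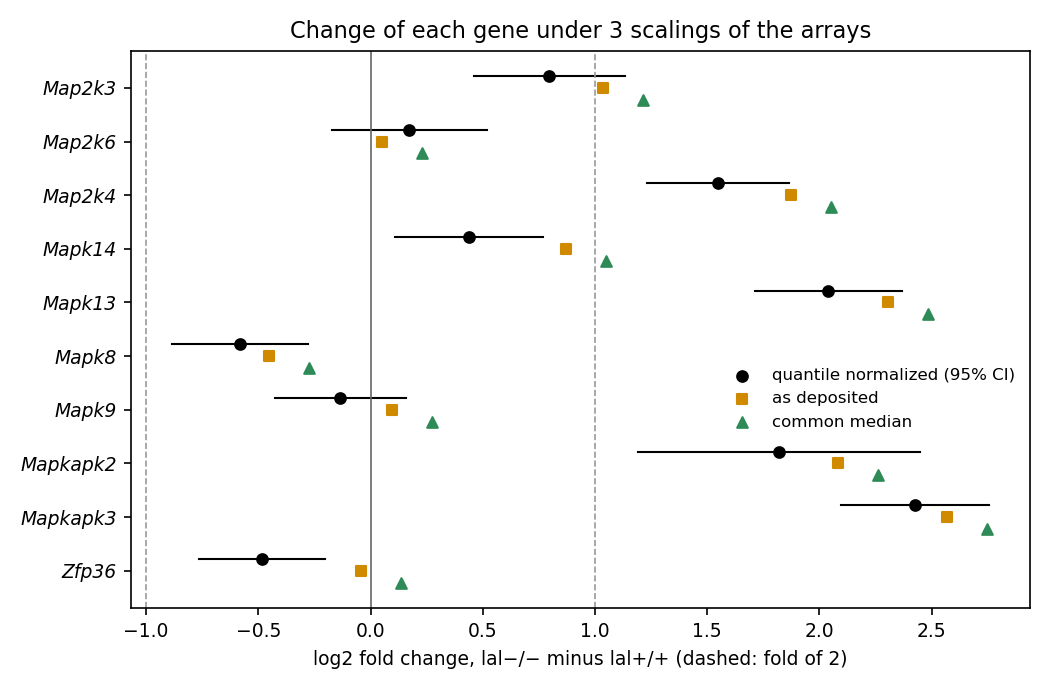
The horizontal axis is the log2 fold change, *lal−/−* minus *lal+/+*, of each gene with quantile normalized arrays (circles with the 95% confidence interval of the limma fit), with the values as deposited (squares) and with a common median (triangles), and dashed lines mark a fold of 2. Mapk13, Map2k4, Mapkapk2 and Mapkapk3 lie beyond the dashed line under all 3 scalings, Map2k3 and Mapk14 cross it under some, and Mapk9 and Zfp36 lie on both sides of 0.

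The number of calls depended on the scaling. The common median gave 6 genes called higher, adding Mapk14 and Map2k3, and the deposited values gave 5, adding Map2k3. The share of all genes called higher was 13.1% with the common median and 10.1% with the deposited values, against 7.56% with quantile normalization. Of all calls, 70.0% were higher with quantile normalization, 84.9% with the common median and 76.1% with the deposited values. Mapkapk3, Mapk13, Mapkapk2 and Map2k4 were called higher in each. Under an ordinary linear model without moderated variances 0 of the 10 genes and 0 of all genes passed the adjusted threshold, while 6 of the 10 and 5691 of all had an unadjusted p under 0.05.

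The promoters of the 4 genes called higher and of Zfp36 are shown because the kinases were called in the same direction and Zfp36 is the target at the end of the branch. RefSeq gave 16 promoter windows for the 10 genes, from 250 bases before to 50 bases after each start, in GRCm38.p6. The 250 bases before the start are printed 5′ to 3′ on the strand of the gene, with every match to 7 motifs, searched on both strands, in capitals. Where a gene has several starts, the one furthest upstream was taken. The positions are chr17:28769067-28769316 (plus strand) for Mapk13, chr9:107289878-107290127 (minus) for Mapkapk3, chr1:131097844-131098093 (minus) for Mapkapk2, chr11:65788360-65788609 (minus) for Map2k4 and chr7:28379229-28379478 (minus) for Zfp36.
Mapk13: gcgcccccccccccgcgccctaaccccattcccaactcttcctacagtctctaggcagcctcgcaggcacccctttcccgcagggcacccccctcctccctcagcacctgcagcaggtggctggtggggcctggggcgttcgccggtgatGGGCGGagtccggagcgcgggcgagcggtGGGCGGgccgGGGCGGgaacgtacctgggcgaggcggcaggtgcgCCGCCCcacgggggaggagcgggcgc
Mapkapk3: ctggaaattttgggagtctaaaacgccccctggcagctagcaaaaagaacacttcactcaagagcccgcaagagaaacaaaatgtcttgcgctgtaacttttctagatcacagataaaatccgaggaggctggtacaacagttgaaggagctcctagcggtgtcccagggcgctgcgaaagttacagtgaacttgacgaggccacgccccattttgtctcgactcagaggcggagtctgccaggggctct
Mapkapk2: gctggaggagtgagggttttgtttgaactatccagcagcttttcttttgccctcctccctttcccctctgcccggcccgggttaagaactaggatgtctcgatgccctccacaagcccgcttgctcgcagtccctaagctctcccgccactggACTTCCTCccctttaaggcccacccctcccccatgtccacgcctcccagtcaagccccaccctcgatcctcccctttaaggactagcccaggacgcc
Map2k4: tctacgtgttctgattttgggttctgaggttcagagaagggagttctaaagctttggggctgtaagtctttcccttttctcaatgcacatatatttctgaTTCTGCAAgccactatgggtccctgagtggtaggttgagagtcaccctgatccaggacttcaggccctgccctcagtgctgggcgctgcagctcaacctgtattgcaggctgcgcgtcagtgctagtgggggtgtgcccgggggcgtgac
Zfp36: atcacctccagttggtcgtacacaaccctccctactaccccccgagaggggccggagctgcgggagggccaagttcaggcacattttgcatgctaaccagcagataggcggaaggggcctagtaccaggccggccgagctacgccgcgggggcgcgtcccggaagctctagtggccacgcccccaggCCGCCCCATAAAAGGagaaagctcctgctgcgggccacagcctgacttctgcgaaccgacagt

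The capitals differ from gene to gene. The 4 matches of Mapk13 are GC boxes (GGGCGG), which 35.7% of all 32851 promoter windows of 300 bases in the table hold. Its window of 300 bases is 78.0% G and C, against a median of 52.7% over all promoters. Mapkapk2 has a PU.1 motif (GAGGAAGT, in 3.20% of all promoters) beginning 97 bases before the start, and PU.1 is a transcription factor of the myeloid lineage. Map2k4 has a C/EBP motif (TTGCNNAA, in 10.8%) beginning 150 bases before the start. A window of Mapk14, which was not called, also held the C/EBP motif. Mapkapk3 holds no match in either of its windows. Zfp36 has a CArG motif, which serum response factor binds and 1.63% of all promoters hold, beginning 58 bases before the start and sharing 1 base with a GC box.

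The other motifs were AP-1 (TGANTCA, in 7.81% of all promoters), which only Map2k6 held, and CRE (TGACGTCA, in 1.79%) and the NF-kB motif (in 0.411%), which none of the 16 windows held. No motif was thus found in all 4 genes called higher. A match of letters is a description of the window and not a measured binding site.

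Further genes of the MAP kinase pathways were described by 12 lists written from textbook roles. Of 152 listed genes, 143 were analysed here, of which 17 (11.9%) were called higher and 8 (5.59%) lower, beside the 7.56% and 3.24% of all genes. With a common median 29 were higher, beside 13.1% of all genes. The bar plot of the lists gives the counts.

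**Figure D3:**
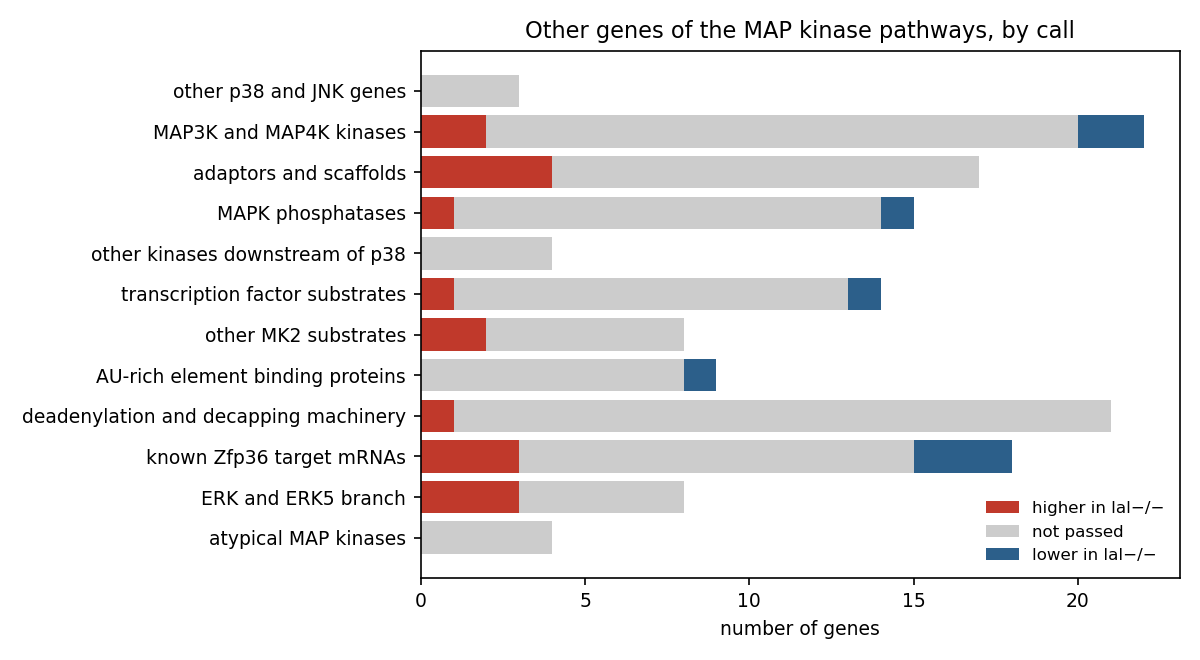
The horizontal axis is the number of genes of each list, split into those called higher in *lal−/−* (red, left), those that did not pass (grey) and those called lower in *lal−/−* (blue, right). The adaptors and scaffolds have 4 of 17 genes called higher, the Zfp36 target mRNAs have 3 higher and 3 lower of 18, and 3 lists have no call.

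Of the other p38 and JNK genes, Mapk11 and Mapk12, which encode p38β and p38γ, and Mapk10, a JNK best known in neurons, were analysed and Map2k7 was not analysed here. Mapk11 had levels of 6.12 and 5.61 in *lal−/−* MDSCs, against 5.86 and 5.84 in *lal+/+* MDSCs. Mapk10 had a log2 fold change of -0.11, and neither it nor Mapk11 was above silent genes in either genotype. Mapk12 had levels of 6.56 and 6.76 in *lal−/−* MDSCs, against 6.89 and 7.17 in *lal+/+* MDSCs, with a log2 fold change of -0.37 and a limma adjusted p of 0.113. Of the 4 p38 isoforms Mapk13 alone was called with quantile normalization, while with a common median Mapk14 was called higher as well.

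Of 22 MAP3K and MAP4K kinases, which stand above the kinase kinases, 2 were called higher and 2 lower. Map3k9, a mixed-lineage kinase of the JNK branch, had a log2 fold change of 1.52 and Map4k4 one of 1.19. Map4k1 had -1.06, which was -0.76 without *lal−/−* replicate 2, -0.73 with a common median and -0.91 with the deposited values. Tnik had -1.04, which was -0.98 without either *lal−/−* replicate 2 or *lal+/+* replicate 1. All of these missed the fold threshold, and the count of lower genes was 0 without *lal−/−* replicate 2. Map3k9 was under silent genes in *lal+/+* cells, as Tnik was in *lal−/−* cells. Without the fold threshold 8 of the 22 were higher and 7 lower, beside 19.8% and 9.85% of all genes. With a common median 4 were called higher and 1 lower. The study's tables hold 3 of these 22 genes.

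Of 17 adaptors and scaffolds, 4 were called higher and 0 lower. The list had a median log2 fold change of 0.32. Arrb2 encodes β-arrestin 2, which scaffolds JNK and ERK modules at receptors, and had levels of 11.16 and 11.09 in *lal−/−* MDSCs, against 9.07 and 8.76 in *lal+/+* MDSCs. Its log2 fold change was 2.21 (standard error 0.15, limma adjusted p = 0.000129). Gadd45g (1.80) and Gadd45b (1.18) encode small stress proteins that activate a MAP3K, and Jkamp (1.57) encodes a membrane protein bound by JNK. Gadd45g and Jkamp were under silent genes in *lal+/+* cells.

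Of 15 phosphatases that act on MAP kinases, Ptpn7 was called higher with a log2 fold change of 1.14, from *lal+/+* levels under silent genes, and Dusp16, a phosphatase of JNK and p38, was called lower with -1.42. Dusp16 had levels of 6.60 and 6.75 in *lal−/−* MDSCs, against 8.11 and 8.08 in *lal+/+* MDSCs. Dusp1, the phosphatase best known for ending p38 activity in macrophages, had levels of 10.61 and 10.69 in *lal−/−* MDSCs, against 11.21 and 11.11 in *lal+/+* MDSCs. Its log2 fold change of -0.51 (limma adjusted p = 0.0207) was under the fold threshold and was 0.066 with a common median.

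The 4 other kinases downstream of p38 that were analysed had log2 fold changes of 0.54 to 0.80. All 4 had an adjusted p under 0.05 by limma and none reached a fold of 2. Of all genes, 19.8% passed that adjusted p in the higher direction. Mapkapk5, also called MK5, had levels of 8.71 and 8.78 in *lal−/−* MDSCs, against 8.15 and 7.76 in *lal+/+* MDSCs. Its log2 fold change of 0.80 was 1.01 without *lal+/+* replicate 1, 1.09 with the deposited values and 1.27 with a common median, which would pass.

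Of 14 transcription factor substrates, Max, the dimer partner of Myc, was called higher with 1.11 and Mef2c, a p38 substrate also used in B cells and macrophages, was called lower with -2.72. Mef2c had levels of 6.81 and 6.90 in *lal−/−* MDSCs, against 9.53 and 9.62 in *lal+/+* MDSCs, the greatest decrease in the 12 lists. Of 8 other MK2 substrates, Hnrnpa0 (1.04) and Rcsd1 (1.03), which encode an AU-rich element binding protein and an actin capping regulator, were called higher. Hnrnpa0 was under silent genes in both genotypes, and it missed the threshold at 0.97 without *lal+/+* replicate 2, at 0.99 with a common median and at 0.81 with the deposited values. Rcsd1 missed it at 0.98 without *lal−/−* replicate 2.

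Beside Zfp36, 9 AU-rich element binding proteins were analysed, and Zfp36l1, a paralogue of Zfp36, was the one called. Zfp36l1 had levels of 5.42 and 5.45 in *lal−/−* MDSCs, against 7.68 and 7.22 in *lal+/+* MDSCs. The *lal−/−* levels were under those of silent genes. Its log2 fold change was -2.02 (standard error 0.17, limma adjusted p = 0.000289). Zfp36l2, the other paralogue, had -0.48 with a limma adjusted p of 0.0737 and was 0.049 with a common median.

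Of 21 genes of the deadenylation and decapping machinery, which carries out the decay that Zfp36 starts, 1 was called higher and 0 lower. Lsm1, of the ring that binds deadenylated ends, had a log2 fold change of 1.09, with *lal+/+* levels under silent genes, and 0.86 without *lal−/−* replicate 2. Without that array 0 were called higher and 1 lower, without *lal+/+* replicate 1 the higher count was 3, and the deposited values gave 2 higher and 1 lower.

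Of 18 mRNAs known as Zfp36 targets 3 were called higher, 3 were called lower and 12 did not pass. Their median change was 0.08 on the log2 scale. Tnf, the best studied target, had levels of 9.31 and 9.13 in *lal−/−* MDSCs, against 7.14 and 6.67 in *lal+/+* MDSCs. Its log2 fold change was 2.31 (standard error 0.18, interval 1.88 to 2.74, limma adjusted p = 0.000213). Plau, the urokinase protease, was 1.77 higher, with *lal+/+* levels under silent genes, and Osm, a cytokine of the interleukin 6 family, was 1.53 higher on the log2 scale.

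Il1b, a cytokine of the inflammasome pathway, had levels of 10.68 and 10.59 in *lal−/−* MDSCs, against 12.64 and 12.62 in *lal+/+* MDSCs. It was lower in *lal−/−* cells, with a log2 fold change of -1.99 (standard error 0.12, interval -2.28 to -1.71, limma adjusted p = 0.000101). Ptgs2, which encodes cyclooxygenase 2, had levels of 7.92 and 8.12 in *lal−/−* MDSCs, against 9.68 and 9.67 in *lal+/+* MDSCs. The chemokine Ccl4 had a log2 fold change of -1.09, which was -0.94 without *lal−/−* replicate 1, -0.73 with a common median and -0.91 with the deposited values, all under the fold threshold. Of the 12 others, 4 were at or under the level of silent genes in both genotypes.

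**Figure D4:**
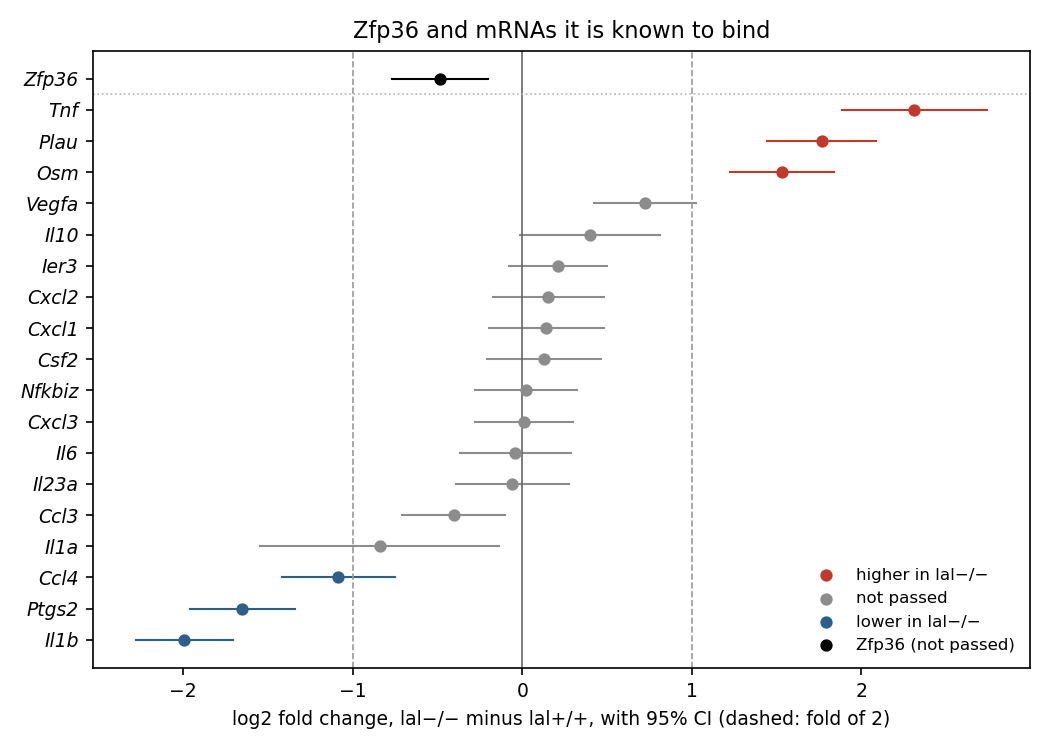
The horizontal axis is the log2 fold change, *lal−/−* minus *lal+/+*, with the 95% confidence interval of the limma fit, for Zfp36 and 18 mRNAs that it is known to bind, and dashed lines mark a fold of 2. Tnf, Plau and Osm lie on the right, Il1b, Ptgs2 and Ccl4 on the left, and the 12 others did not pass.

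In the ERK and ERK5 branch, the parallel MAP kinase cascade, 8 of 13 listed genes were analysed, of which 3 were called higher and 0 lower. The kinase kinases Map2k1 and Map2k2 had log2 fold changes of 1.29 and 1.02, and Mapk7, which encodes ERK5, had 1.19. Map2k1 had levels of 9.51 and 9.50 in *lal−/−* MDSCs, against 8.24 and 8.19 in *lal+/+* MDSCs. Map2k2 was under silent genes in *lal+/+* cells, and its log2 fold change was 0.89 without *lal−/−* replicate 1. The study's tables hold 3 genes of this list. The median log2 fold change of the 8 genes was 0.73, and none of the 4 atypical MAP kinases was called. With a common median, with the deposited values and without *lal+/+* replicate 1, 1 of these 4 was called higher.

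The samples of selected cells differed between the genotypes in their levels of cell type markers. Of 18 neutrophil and granule genes 12 were called higher and 1 lower, with mean levels of 11.67 to 11.69 on the *lal−/−* arrays, against 10.23 to 10.28 on the *lal+/+* arrays. Ly6g (2.88) and Itgam (1.19), which encode the antigens of the selection and of CD11b, and the early granule proteases and peroxidase Ctsg (3.78) and Mpo (3.75) were among those higher on the log2 scale, and Ctsg and Mpo were under silent genes in *lal+/+* cells. S100a8 and S100a9, abundant in mature neutrophils, had 0.05 and 0.20, and the receptor Csf3r was lower at -1.91. All 9 B cell genes were lower, with mean levels of 6.09 to 6.16 in *lal−/−* cells, against 9.36 to 9.58 in *lal+/+* cells. Of 10 monocyte and macrophage genes 7 were lower, with mean levels of 6.93 to 6.97 in *lal−/−* cells, against 8.85 to 9.0 in *lal+/+* cells, and Mrc1 (-4.54) and Spic (-4.21) were under silent genes in *lal−/−* cells.

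Of 8 T and NK cell genes Cd3d was called higher (2.42) and 3 were lower, namely Cd2 (-4.40), Cd3g (-2.01) and Cd3e (-1.28). Of 8 eosinophil, basophil and mast cell genes Mcpt8 and Prg2 were called higher and 0 lower, and Mcpt8 was under silent genes in *lal+/+* cells. Without the fold threshold 4 of these 8 were higher and 2 lower, beside 19.8% and 9.85% of all genes. Of the 8, 5 were under silent genes in both genotypes. None of 4 erythroid and megakaryocyte genes passed, and 4 of 5 genes of dividing cells, such as Cdk1 (2.49) and Ccna2 (2.08), were higher. The part of these markers in the changes of the cascade genes was not tested. In such bulk samples fewer cells of a type and less RNA per cell cannot be told apart.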

How the data were processed

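The authors hybridized RNA of Ly6G+ cells to Mouse Gene 1.0 ST arrays and deposited log2 values of 35557 probe sets, which their methods say were made by RMA with Partek Genomics Suite. The labels name GCOS 1.1. Of 23410 probe sets in the gene table, 21789 name 1 gene and 1621 name several and were not tested. Symbols of 21698 were updated and 91 were kept. No column was left unused.

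Column medians of the deposited values differed by up to 0.21, more than RMA with its quantile step usually leaves, so the last step before deposition is uncertain. The arrays were quantile normalized here. Genotype was the only term of the model fitted with limma 3.58.1 in R 4.3.3 (4.83 prior and 2 residual degrees of freedom), because the tissue term of the methods cannot be fitted to 1 tissue. Where several probe sets name a gene, the brightest was used. Standard errors are those of the moderated fit and SDs those of the 2 arrays of a genotype. The number of arrays limits the precision, and the smallest p of an exact permutation test of 2 against 2 arrays is 0.333 (two-sided), so none was used.

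The 10 genes, the 12 pathway lists and the 7 marker lists were chosen with earlier results of these data known. Named are all 10 genes, Lipa, up to 4 called genes per pathway list and direction, up to 3 per marker list and direction, and a fixed group such as Mapk11, Dusp1, Zfp36l2 and S100a8 whatever their result. The neighbours of Mapk13 and Mapk14 were named by position, and the smaller lists were given by counts. Some listed genes were not analysed here.

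Other settings tried were the deposited values, arrays set to a common median, a filter on probe sets under the median level, and a fit over every probe set. Others were trended robust variances, an ordinary linear model, a replicate block, an adjusted p threshold of 0.01, calls by adjusted p alone, genes averaged over their probe sets, and each array left out in turn. A crossed block was added after the data were seen. The procedure was tested on simulated data. Promoter sequences are those of RefSeq for GRCm38.p6.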

Additional observations from a re-analysis of the deposited data

How the results depend on the processing

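Mapkapk3, Mapk13, Mapkapk2 and Map2k4 were called higher in every alternative except the ordinary linear model. The common median called 6 of the 10 genes higher, and the deposited values and the absence of a fold threshold 5 each. Of all genes, these settings called 13.1%, 10.1% and 19.8% higher. The ordinary linear model gave 0 of the 10 genes and, in the 12 pathway lists, 0 higher and 0 lower. Without the fold threshold, and with quantile normalization, 2 of the 10 genes (Mapk8 and Zfp36) were lower, and the lists gave 43 higher and 28 lower. Of all genes, 9.85% were lower in that setting. The common median gave 29 higher in the lists. Leaving out each array in turn gave log2 fold changes of 1.85 to 2.14 for Mapk13, 1.43 to 2.31 for Mapkapk2, 2.26 to 2.6 for Mapkapk3 and 1.41 to 1.65 for Map2k4. With a common median the sign turned for Mapk9 (0.27), Zfp36 (0.14), Dusp1 (0.066), Zfp36l2 (0.049) and Mapk11 (-0.012), and with the deposited values for Mapk9 (0.095) and Mapk11 (-0.19). It also turned for Mapk11 without *lal−/−* replicate 1 (-0.23) and for Mapk10 without *lal+/+* replicate 1 (0.028), whose values without each array ranged from -0.25 to 0.028. The cause was not tested.

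The labels give no pairing of the replicate numbers across genotypes, and the deviations of same-numbered arrays from their group means correlated at -0.175. With a replicate block 4 of the 10 genes were called higher and 0 lower, and the lists gave 17 higher, as without it. The crossed block, chosen after seeing the data, also gave 4 and 0. Signal limits Mapkapk3 and Map2k6, whose *lal+/+* levels were under those of silent genes.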
